A study of Homo sapiens with 6 samples.

Results

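RNA polymerase III (Pol III) transcribes short non-coding RNAs, among them transfer RNAs, 5S ribosomal RNA, U6 small nuclear RNA and 7SL RNA. The genes described here encode subunits that only this polymerase contains, POLR3A, POLR3B, POLR3C, POLR3D, POLR3E, POLR3F, POLR3G, POLR3GL and POLR3K, together with its general repressor MAF1. These 10 genes were taken by symbol from the 60664 genes of the deposited tables, and all 10 passed the low-count filter with 14673 genes in all. The polymerase has a catalytic core and a stalk, a pair of subunits related to the Pol II factor TFIIF, and a heterotrimer that opens the promoter. In that heterotrimer either POLR3G or its paralog POLR3GL fills the same place. POLR3G is known mainly from stem cells and tumour cells, and POLR3GL from most adult tissues. MAF1 binds the polymerase and blocks initiation when nutrients are scarce, and phosphorylation through mTORC1 releases that block. MYC is known to raise Pol III transcription through the factor TFIIIB.

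All libraries came from D283 Med cells, a human line of Group 3 medulloblastoma, a childhood tumour of the cerebellum, in which MYC is amplified. Cells of both groups had been transfected with LNA GapmeRs, chemically modified antisense oligonucleotides that recruit RNase H to a target RNA. The knockdown group (KD, 3 libraries) received them against the long non-coding RNA lncMB3, and the control group (SCR, 3 libraries) is labelled only by that abbreviation. Transfection times, doses and oligonucleotide sequences were not analysed here. Effects of the oligonucleotides other than loss of lncMB3 cannot be told apart from that loss. The cell line is a single source. Separate cultures are not mentioned in the labels, and the spread behind each p-value is therefore that among sequenced libraries and may be technical.

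Total counts ran from 7765826 to 19989654 in KD libraries, against 17072573 to 20035834 in SCR libraries, with KD library 1 the shallowest. The level of lncMB3 itself was not analysed here, so directions rest on the labels. The Group 3 markers were present, with MYC at 1203 ± 74.8 CPM in KD and 1177 ± 90.5 CPM in SCR libraries, and OTX2 at 729 ± 11.2 CPM in KD and 885 ± 51.5 CPM in SCR libraries (CPM, each gene's count per 1000000 counts of the TMM-scaled library; SD, n = 3 each). Of 9 markers of other cell types, 2 passed the filter, COL1A1 (15.8 ± 1.86 CPM in KD and 20 ± 1.85 CPM in SCR libraries) and VWF (0.564 and 0.836 CPM), and COL3A1 and MBP had no count in any library. Of the 6 Group 3 markers 4 differed between the groups by edgeR (adjusted p under 0.05), against 31.7% of all tested genes. OTX2 (log2 change -0.28, adjusted p = 0.0202), IMPG2 (-0.59, 0.000414) and EYS (-0.81, 0.00334) were lower in KD libraries, and GABRA5 (0.41, 0.00384) was higher. MYC (0.03, 0.826) and NPR3 (0.10, 0.391) were not called, and COL1A1 was lower (-0.36, 0.0315). The part of these differences in the results for the Pol III genes was not tested. SCR library 1 stood nearest to the KD libraries. On the first principal component, which held 53.3% of the variance, the KD libraries lay from -31.7 to -20.8, SCR library 1 at 14.5, and SCR libraries 2 and 3 at 30.7 and 35.4. In bulk RNA, fewer cells of a type and less RNA per cell cannot be told apart.

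The comparison asked which of these transcripts differed between KD and SCR cells. In KD cells 5 of the 10 genes rose (POLR3A, POLR3C, POLR3E, POLR3G and POLR3K), POLR3GL fell, and 4 did not pass the test (POLR3B, POLR3D, POLR3F and MAF1). The test was edgeR's quasi-likelihood F test with Benjamini-Hochberg adjustment over all 14673 genes, and a gene was called at an adjusted p under 0.05. Over all tested genes 15.9% were called higher and 15.9% lower (31.7% in either direction). At a threshold of 0.01, POLR3C, POLR3G and POLR3K rose (3 genes, against 8.11% of all tested genes called higher) and POLR3GL fell. The groups did not overlap in 7 of the 10 genes, against 46% of all tested genes. The median log2 change of the 10 genes was 0.28, and that of all tested genes was 0.00. With upper-quartile scaling the calls over all genes split into 1773 higher and 2803 lower, against 2328 and 2329 with TMM scaling, and 3 of the 10 genes were then called higher.

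**Figure D1:**
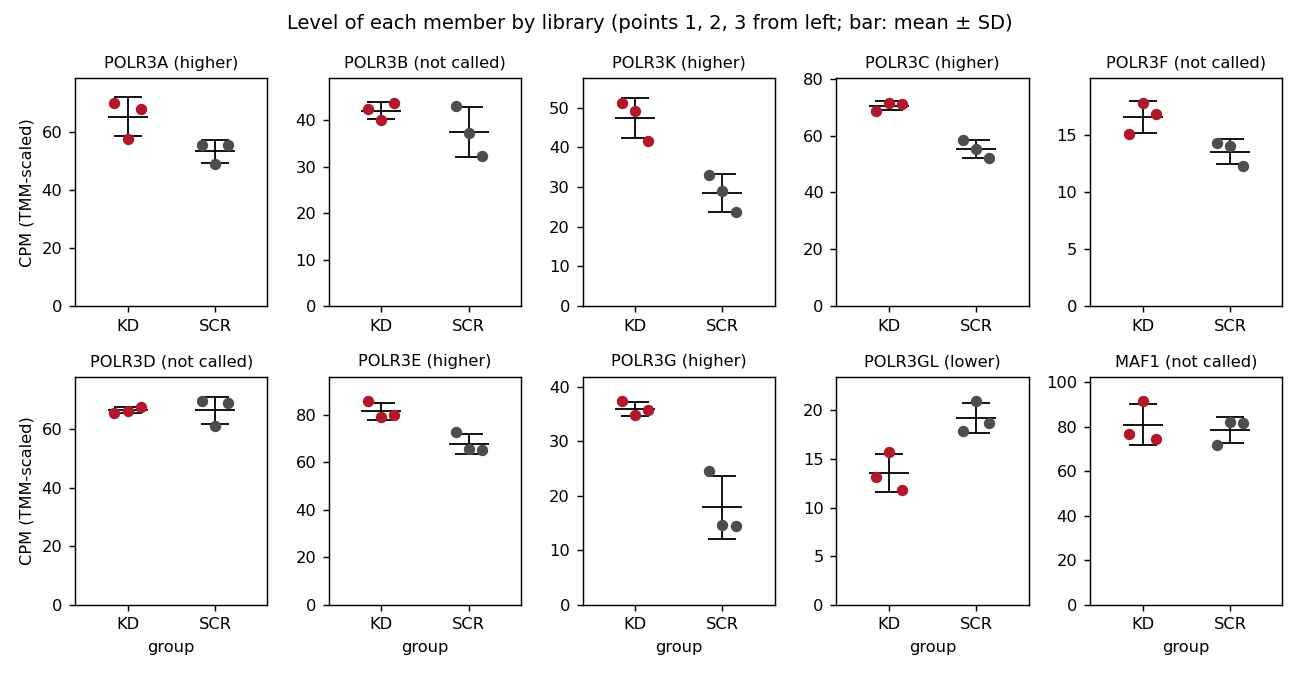
Level of each of the 10 genes in every library, in CPM on TMM-scaled library sizes (vertical axes start at 0), with KD libraries left and SCR libraries right; bars give the mean and SD of 3 libraries. The KD points of POLR3G, from 34.8 to 37.3 CPM, all lie above the SCR points, from 14.5 to 24.6 CPM, and those of POLR3GL all lie below.

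The paralogs POLR3G and POLR3GL moved in opposite directions. POLR3G (ENSG00000113356.13, chromosome 5, 90471748 to 90514553, GRCh38, plus strand) encodes the RPC7 subunit in the form linked to stem and tumour cells. Its level was 37.3, 34.8 and 35.7 CPM in KD libraries 1 to 3, against 24.6, 14.7 and 14.5 CPM in SCR libraries 1 to 3. Every KD library was above every SCR library, and SCR library 1 was the highest of its group. The fold change was 2.0 (log2 change 1.0 ± 0.16 SE, edgeR adjusted p = 0.000553), and 0.859% of all tested genes were called higher with a change at least as large. Leaving out SCR library 1 gave a log2 change of 1.30, and leaving out SCR library 2 or SCR library 3 gave 0.87. The coefficient of variation of POLR3G was 3.53% over KD libraries and 32.3% over SCR libraries. POLR3GL (ENSG00000121851.13, chromosome 1, 145964702 to 145978848, plus strand), the form found in most tissues, had 13.1, 15.7 and 11.8 CPM in KD libraries, against 17.9, 20.9 and 18.7 CPM in SCR libraries. All KD values were below all SCR values, and the level in SCR was 1.41-fold that in KD (log2 change -0.50 ± 0.12, edgeR adjusted p = 0.00831). The call was lost without SCR library 2 (log2 change -0.43, edgeR adjusted p = 0.0525). KD library 1 held the fewest POLR3GL counts, 101.

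The longest run of identical bases that their principal GENCODE transcripts share was sought, to see whether reads could be mistaken between them. That run was 14 bases long and occurred at 2 different sequences. The first of them is printed in capitals with 30 coding bases on either side, transcript positions 732 to 805 in POLR3G and 624 to 697 in POLR3GL, to show how short the shared stretch is.
POLR3G: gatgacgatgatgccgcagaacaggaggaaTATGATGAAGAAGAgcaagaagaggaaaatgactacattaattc
POLR3GL: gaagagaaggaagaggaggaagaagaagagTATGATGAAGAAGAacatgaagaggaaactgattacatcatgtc
None of the 6 annotated pseudogenes of these 10 genes had more than 2 counts over the 6 libraries together. Other annotated genes overlap some of the loci, and whether counting used strand is not stated. MBLAC2 overlaps 3021 bases of POLR3G on the other strand and had 9.37, 8.61 and 10.4 CPM in KD libraries, against 10.3, 9.59 and 10 CPM in SCR libraries (log2 change -0.07 ± 0.13, edgeR adjusted p = 0.703). Its groups overlapped. An unnamed protein-coding gene, ENSG00000280778, overlaps 13110 bases of POLR3GL on the same strand and had no count in any library.

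As a share of the counts of both paralogs, POLR3G took 74.0%, 68.9% and 75.2% in KD libraries, against 58.0%, 41.3% and 43.8% in SCR libraries. The share averaged 72.7% ± 3.30 in KD and 47.7% ± 9.02 in SCR libraries (SD, n = 3 each), a difference of 25 percentage points. The groups did not overlap, and an exact two-sided permutation test gave p = 0.1, the smallest that 3 against 3 libraries allow. This share needs no scaling between libraries. Per kilobase of principal transcript, 3285 bases for POLR3G and 1165 for POLR3GL, POLR3G made up 48.7% ± 4.08 in KD and 24.8% ± 7.02 in SCR libraries. On that scale the sum of both paralogs was 22.6 ± 1.56 CPM per kilobase in KD and 21.9 ± 1.27 in SCR libraries, and the groups overlapped (exact permutation p = 0.6). Both the share per kilobase and the sum depend on the length used. The POLR3G transcript has 2413 bases beyond its stop codon, and per kilobase of coding sequence, a scale added after seeing the data, the sum was 74.1 ± 2.69 in KD and 55.8 ± 7.17 in SCR libraries, without overlap (exact permutation p = 0.1). On that coding scale POLR3G made up 72.2% ± 3.34 in KD and 47.1% ± 9.02 in SCR libraries. Which transcript ends the cells used was not tested.

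**Figure D2:**
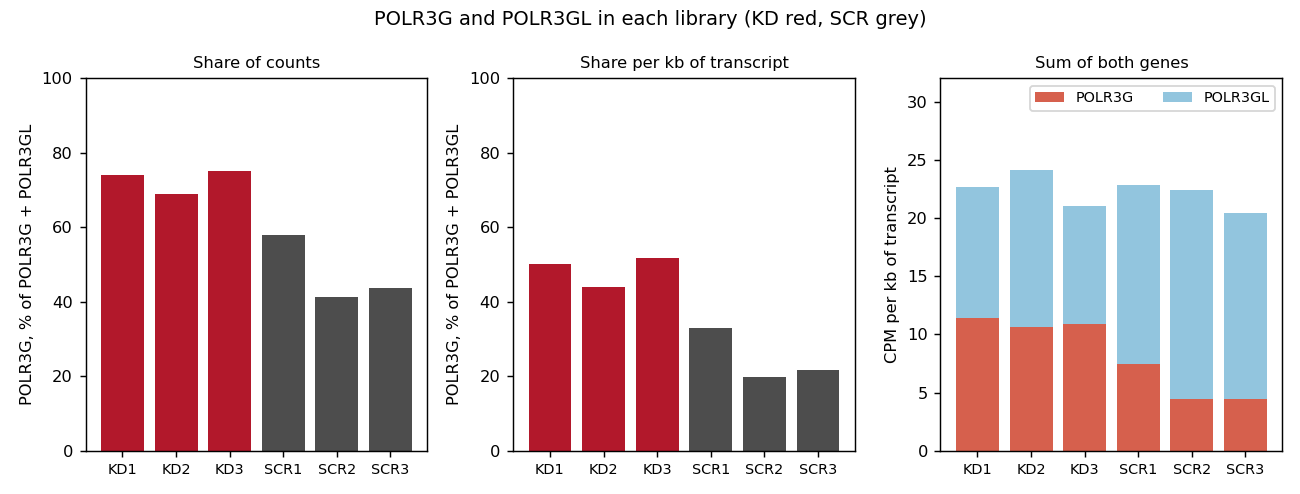
POLR3G as a percentage of POLR3G plus POLR3GL in each library by counts (left) and per kilobase of transcript (middle), and both genes stacked in CPM per kilobase of transcript (right); axes start at 0 and the KD libraries stand left. The share of counts lay from 68.9% to 75.2% in KD and from 41.3% to 58.0% in SCR libraries, while the stacked sum lay from 21.0 to 24.1 in KD and from 20.4 to 22.8 in SCR libraries.

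The other parts of the initiation heterotrimer had log2 changes nearer to 0 than the paralogs. POLR3C (ENSG00000186141.9, chromosome 1, 145824088 to 145842505, plus strand) encodes RPC3, the winged-helix subunit that contacts POLR3F and the RPC7 forms. It had 68.7, 71.5 and 71.2 CPM in KD libraries, against 58.6, 55.1 and 52.1 CPM in SCR libraries. The groups did not overlap, and the 1.28-fold rise (log2 change 0.35 ± 0.08, edgeR adjusted p = 0.00567) was called in each of the other settings tried, with adjusted p-values up to 0.036. Its divergent neighbour RNF115 begins 10 bases away on the other strand and had a log2 change of 0.12 ± 0.08 (edgeR adjusted p = 0.288). POLR3F (ENSG00000132664.12, chromosome 20, 18467127 to 18484643, plus strand) encodes RPC6, which binds TFIIIB. It had 15.1, 17.8 and 16.8 CPM in KD libraries, against 14.3, 14.0 and 12.3 CPM in SCR libraries, and was the lowest of the 9 subunits in KD libraries per kilobase. Its groups did not overlap, but its log2 change of 0.30 ± 0.11 missed the threshold (edgeR adjusted p = 0.054). It passed with limma-voom (adjusted p = 0.049) and without KD library 1 (0.0495) or SCR library 1 (0.0457), within a range over the alternatives of 0.0457 to 0.196.

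In the catalytic core the small subunit POLR3K had the largest log2 change of the 3 described. POLR3K (ENSG00000161980.6, chromosome 16, 46407 to 53628, minus strand) encodes RPC10, which takes part in RNA cleavage and termination. It had 51.2, 49.2 and 41.7 CPM in KD libraries, against 33.1, 29.1 and 23.6 CPM in SCR libraries. All KD values exceeded all SCR values, and the rise was 1.65-fold (log2 change 0.72 ± 0.12, edgeR adjusted p = 0.00072). SNRNP25, a gene of the minor spliceosome that overlaps 619 bases of POLR3K on the other strand, rose as well, with 31.5, 34.0 and 32.2 CPM in KD libraries against 26.1, 21.1 and 20.9 CPM in SCR libraries (log2 change 0.52 ± 0.10, edgeR adjusted p = 0.00216). Its part in the value of POLR3K was not tested. POLR3A (ENSG00000148606.13, chromosome 10, 77969251 to 78029545, minus strand) is the largest subunit and holds the active site together with POLR3B. It had 70.1, 57.6 and 68.1 CPM in KD libraries, against 55.7, 48.9 and 55.4 CPM in SCR libraries. KD library 2 lay just above the highest SCR library, and the rise was 1.22-fold (log2 change 0.29 ± 0.10, edgeR adjusted p = 0.0346). That call was lost with upper-quartile scaling (adjusted p = 0.0805) and without KD library 1 (0.129), KD library 3 (0.137), SCR library 2 (0.177) or SCR library 3 (0.0566). POLR3B (ENSG00000013503.10, chromosome 12, 106357658 to 106510198, plus strand), the second-largest subunit and the longest of the 10 genes, had 42.4, 40.1 and 43.8 CPM in KD libraries, against 43.1, 37.2 and 32.4 CPM in SCR libraries. The groups overlapped, with SCR library 1 among the KD values (log2 change 0.16 ± 0.10, edgeR adjusted p = 0.25). POLR3B passed without SCR library 1 (adjusted p = 0.0472) and when a trend of change with gene span was removed (log2 change 0.29, adjusted p = 0.0478), and its adjusted p ranged from 0.0472 to 0.687 over the alternatives.

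The pair of TFIIF-like subunits did not move together past the test. POLR3E (ENSG00000058600.16, chromosome 16, 22297375 to 22335103, plus strand) encodes RPC5, the larger of the pair. It had 85.5, 78.9 and 79.8 CPM in KD libraries, against 72.5, 65.4 and 64.9 CPM in SCR libraries. The groups did not overlap, and the rise was 1.20-fold (log2 change 0.27 ± 0.08, edgeR adjusted p = 0.0267). The call was lost with upper-quartile scaling (adjusted p = 0.0665), with no low-count filter (0.056), and without KD library 1 (0.104), KD library 3 (0.0649), SCR library 2 (0.127) or SCR library 3 (0.0999). Its partner POLR3D (RPC4, ENSG00000168495.13, chromosome 8, 22245104 to 22254600, plus strand) had 65.6, 66.2 and 67.5 CPM in KD libraries, against 69.4, 61.1 and 68.8 CPM in SCR libraries. The KD values lay inside the SCR range, with a log2 change of 0.00 ± 0.08 (edgeR adjusted p = 0.998). Whether POLR3E and POLR3D differ from each other in their change was not tested.

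MAF1 (ENSG00000179632.10, chromosome 8, 144104499 to 144107611, plus strand), the repressor, had 76.9, 91.4 and 74.4 CPM in KD libraries, against 71.8, 82.1 and 81.6 CPM in SCR libraries. The groups overlapped, with a log2 change of 0.05 ± 0.10 (edgeR adjusted p = 0.752) and adjusted p-values from 0.537 to 0.951 over the alternatives. MAF1 lies wholly within the span of SHARPIN, a subunit gene of a ubiquitin ligase on the other strand, which had a log2 change of -0.19 ± 0.09 (edgeR adjusted p = 0.139). Activity of MAF1 is set by phosphorylation, which RNA levels do not measure. Of 10 genes for kinases and phosphatases that act on MAF1, some known from yeast, 2 rose and 8 were not called, with a median log2 change of 0.14. That share, 20%, is near the 15.9% of all tested genes called higher, so nothing is read from it about these genes as a group. The catalytic subunits of the phosphatase PP2A rose, PPP2CA 1.29-fold (259 ± 3.47 CPM in KD and 201 ± 17.1 CPM in SCR libraries, edgeR adjusted p = 0.00515) and PPP2CB 1.24-fold (adjusted p = 0.012). PPP2R1A, another PP2A gene of this list, had overlapping groups and was not called (log2 change 0.11, edgeR adjusted p = 0.346). The casein kinase 2 genes CSNK2A1 and CSNK2A2 had log2 changes of 0.19 and 0.18, the phosphatase gene PPP4C 0.17 and the mTORC1 gene MLST8 0.12, none of them called.

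**Figure D3:**
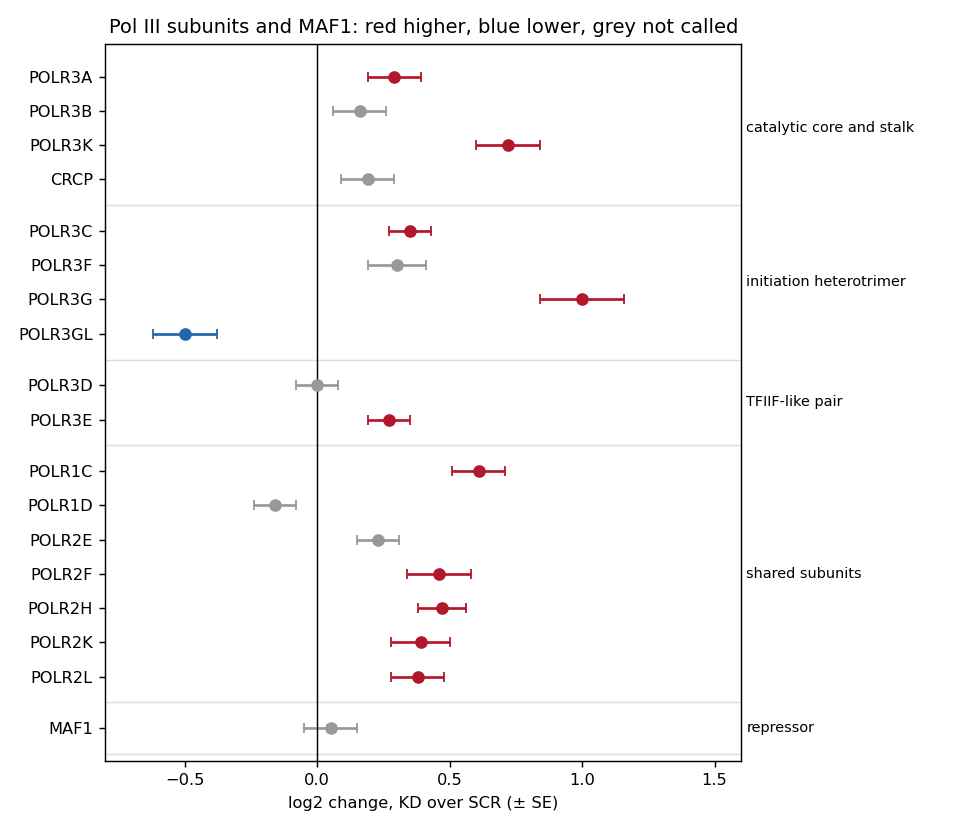
Log2 change of KD over SCR libraries with its SE for the Pol III subunits, by place in the enzyme, and for MAF1; red marks genes called higher, blue lower and grey not called. POLR3G at 1.0 and POLR3GL at -0.50 are the outermost points, and MAF1 (0.05) and POLR3D (0.00) sit on the zero line.

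Levels of the 10 genes can be compared with each other only per length. In KD libraries MAF1 was highest, at 48.2 ± 5.49 CPM per kilobase of principal transcript, followed by POLR3C (38.1 ± 0.831), POLR3K (34.0 ± 3.62) and POLR3E (22 ± 0.963). In this order the KD libraries of each gene lay above those of the next, down to POLR3E. A second tier held POLR3D (12.1 ± 0.180), POLR3GL (11.6 ± 1.71), POLR3G (10.9 ± 0.386), POLR3B (9.85 ± 0.434) and POLR3A (9.83 ± 1.01), with POLR3F last (6.87 ± 0.576). POLR3GL overlapped both POLR3D and POLR3G, and POLR3B overlapped POLR3A, so on this scale these neighbours did not differ beyond their spread. In SCR libraries the first 4 places were the same, with MAF1 at 46.8 ± 3.45, POLR3C at 29.9 ± 1.75, POLR3K at 20.5 ± 3.43, POLR3E at 18.3 ± 1.14 and POLR3GL at 16.4 ± 1.34 CPM per kilobase, and POLR3K overlapped POLR3E and POLR3E overlapped POLR3GL. POLR3D (12.1 ± 0.843), POLR3B (8.79 ± 1.26) and POLR3A (8.03 ± 0.583) followed, the last of them overlapping POLR3B. POLR3G (5.46 ± 1.77) and POLR3F (5.61 ± 0.457) shared the lowest place in SCR libraries. These levels rest on the longest principal transcript of each gene, which for POLR3D is 5494 bases, so an mRNA shorter than that would be understated. The same holds for POLR3G, with 2413 bases beyond its stop codon. Per kilobase of coding sequence POLR3G made up 68.5% to 74.7% of both paralogs in KD libraries.

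The windows around the transcription starts of the genes were read from RefSeq (GRCh38.p14, 250 bases before and 50 after each start), since several members rose together. Entries were found for 7 of the 10 genes, POLR3A, POLR3B, POLR3C, POLR3E, POLR3F, POLR3GL and POLR3K. The palindromic E-box CACGTG, the site that MYC with MAX and other factors can bind, was present in 3 of the 9 windows of these genes, those of POLR3A and POLR3E and 1 of the 2 of POLR3C, against 7.26% of all 35116 windows. The ETS core CCGGAAG, searched on both strands, was present in 2 of the 9, that of POLR3A and the same window of POLR3C, against 10.3% of all windows. The motifs were chosen for this account and do not overlap each other. The 3 windows with an E-box are printed from 200 bases before to 20 after the start, with CACGTG in capitals, beside that of POLR3GL, the gene that fell. They lie at chr10:78029496-78029715 (minus strand) for POLR3A, chr1:145824000-145824219 (plus) for POLR3C, chr16:22297209-22297428 (plus) for POLR3E and chr1:145964490-145964709 (plus) for POLR3GL.
POLR3A: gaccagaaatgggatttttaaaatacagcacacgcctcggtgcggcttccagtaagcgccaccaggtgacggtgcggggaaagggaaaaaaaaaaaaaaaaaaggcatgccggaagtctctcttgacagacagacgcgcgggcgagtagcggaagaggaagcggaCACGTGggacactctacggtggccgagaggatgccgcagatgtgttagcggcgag
POLR3C: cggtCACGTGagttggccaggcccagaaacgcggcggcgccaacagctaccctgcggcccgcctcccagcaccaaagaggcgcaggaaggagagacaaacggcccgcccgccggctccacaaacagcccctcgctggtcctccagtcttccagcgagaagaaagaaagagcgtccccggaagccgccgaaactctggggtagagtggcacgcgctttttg
POLR3E: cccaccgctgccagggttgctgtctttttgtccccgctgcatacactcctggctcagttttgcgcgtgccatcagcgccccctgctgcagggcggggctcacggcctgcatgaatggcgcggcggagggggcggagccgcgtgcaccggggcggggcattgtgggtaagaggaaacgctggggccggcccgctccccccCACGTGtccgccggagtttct
POLR3GL: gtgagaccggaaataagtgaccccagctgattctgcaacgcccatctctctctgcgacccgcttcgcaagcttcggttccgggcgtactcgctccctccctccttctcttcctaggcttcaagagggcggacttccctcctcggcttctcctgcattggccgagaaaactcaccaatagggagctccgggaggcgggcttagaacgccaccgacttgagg
Counting the start as 0, the E-box began at -35 in POLR3A, -196 in POLR3C and -1 in POLR3E, where it spans the start. POLR3K, with a larger log2 change than these 3 genes, had neither motif in its window. The windows of POLR3B and POLR3F, which were not called, also lacked both motifs. POLR3G, with the largest rise, had no entry. A match describes the letters only and is not a measured binding site.

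The wider Pol III pathway was described with 8 lists of 68 genes in all, each of which passed the low-count filter. Of these 41 rose and 0 fell by edgeR, with a median log2 change of 0.37, against 15.9% of all tested genes called higher and a median of 0.00. At an unadjusted p under 0.05 there were 2 lower genes, and among adjusted calls DESeq2 gave 0 and limma-voom 1. CRCP, a stalk subunit found only in Pol III, had a log2 change of 0.19 ± 0.10 (edgeR adjusted p = 0.172). Of 7 subunits that Pol III shares with Pol I or with both other polymerases 5 rose, POLR1C 1.53-fold (40.3 ± 2.10 CPM in KD and 26.5 ± 3.11 CPM in SCR libraries, edgeR adjusted p = 0.000644), POLR2H and POLR2F each 1.38-fold, POLR2K 1.31-fold and POLR2L 1.30-fold. POLR2E missed the threshold (log2 change 0.23, adjusted p = 0.0526), and POLR1D, the partner of POLR1C, had a log2 change of -0.16 ± 0.08 (adjusted p = 0.163).

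TFIIIB places the polymerase at the start site, and of 4 genes for its forms 3 were not called and BRF2, which serves U6-type promoters, rose (1.31-fold, 21.6 ± 1.05 CPM in KD and 16.6 ± 2.48 CPM in SCR libraries, edgeR adjusted p = 0.0223). With 15.9% of all tested genes called higher, 1 of 4 is no result about TFIIIB genes as a group. BRF1, its counterpart at transfer RNA genes, had a log2 change of 0.04 ± 0.09, TBP 0.18 ± 0.09 and BDP1 0.28 ± 0.12. TFIIIC reads the internal promoter of transfer RNA genes, and TFIIIA that of 5S genes. Of their 7 genes 5 rose. GTF3C4 rose 1.44-fold (138 ± 17.7 CPM in KD and 95.5 ± 9.67 CPM in SCR libraries, edgeR adjusted p = 0.00225), GTF3A, the TFIIIA gene, 1.37-fold, GTF3C6 1.32-fold, GTF3C3 1.23-fold and GTF3C2 1.19-fold. GTF3C1, the largest subunit, had a log2 change of -0.12 ± 0.09 and GTF3C5 0.06 ± 0.08. SNAPc and its partners act at U6 and 7SK promoters, and 4 of their 7 genes rose. ZNF143 and SNAPC1 rose 1.47-fold each, SNAPC4 1.44-fold and SNAPC5 1.36-fold, while SNAPC2, SNAPC3 and POU2F1 had log2 changes of -0.12, -0.10 and -0.13 that were not called.

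RNase P and RNase MRP trim the 5′ end of transfer RNAs and cut ribosomal RNA precursors. Of 11 genes for their proteins 8 rose (median log2 change 0.46), against 15.9% of all tested genes called higher. Among the 8, RPP40 rose 1.52-fold, RPP38 1.47-fold, POP7 1.42-fold, RPP14 1.40-fold, RPP30 1.37-fold and POP1 1.31-fold. RPP25, at about 1 CPM, had the lowest log2 change of this list, -0.80 ± 0.30, and was not called (edgeR adjusted p = 0.0521). Of 21 genes for transfer RNA maturation 16 rose (median log2 change 0.46), against the same 15.9% of all tested genes. TRMT6 rose 1.81-fold (43.1 ± 1.59 CPM in KD and 23.8 ± 3.60 CPM in SCR libraries, edgeR adjusted p = 0.000129) and its partner in adenosine methylation, TRMT61A, 1.57-fold. CLP1, an RNA kinase bound to the splicing endonuclease, rose 1.73-fold, NSUN2, a cytosine methyltransferase, 1.70-fold, PUS1, a pseudouridine synthase, 1.67-fold, and TRMT1, a guanosine methyltransferase, 1.38-fold.

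**Figure D4:**
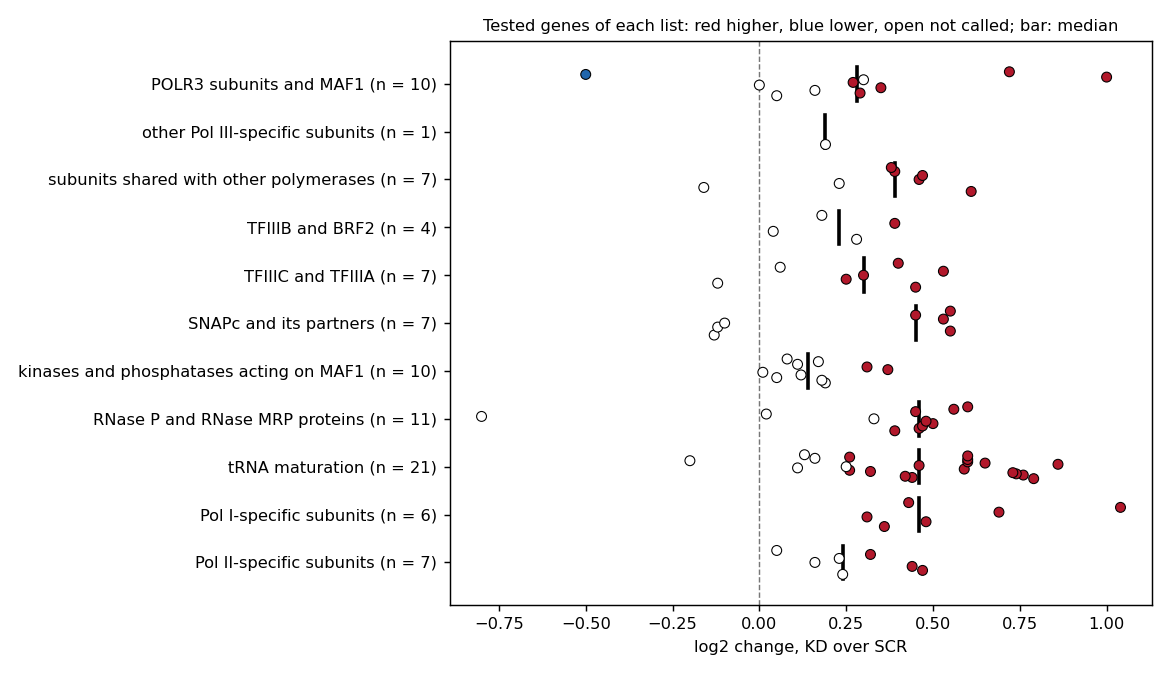
Log2 change of KD over SCR libraries for every tested gene of the Pol III subunits with MAF1, the pathway lists and the subunits particular to Pol I and Pol II; filled points were called (red higher, blue lower), open points were not, and bars give medians. POLR3GL at -0.50 is the only blue point, and the medians lie from 0.14 for the MAF1 kinases and phosphatases to 0.46 for several lists.

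The other nuclear polymerases were set beside the Pol III genes. Of the 9 Pol III subunits with MAF1 5 rose (median log2 change 0.28), of 6 subunits particular to Pol I all 6 rose (median 0.46), and of 7 particular to Pol II 3 rose and 4 were not called (median 0.24). The Pol III set holds MAF1, which is not a subunit, and leaves out the subunit CRCP (log2 change 0.19, not called). Whether these sets differ from each other was not tested. Over all tested genes 15.9% were called higher, and the median log2 change was 0.00. POLR1G, a Pol I subunit, rose 2.06-fold (81.5 ± 0.132 CPM in KD and 39.6 ± 8.49 CPM in SCR libraries, edgeR adjusted p = 8.33e-05) and POLR1F 1.61-fold, and the Pol II subunits POLR2B and POLR2C rose 1.39-fold and 1.36-fold.

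The genes with the most similar profile over the 6 libraries were sought among 10830 genes with a symbol and a mean of at least 5 CPM, by the root-mean-square distance between log2 CPM profiles centred on their means. For POLR3G these were EIF5 (distance 0.0723), GADD45B (0.0754) and HSPA1B (0.094). EIF5, a translation initiation factor, had 397, 393 and 419 CPM in KD libraries, against 263, 180 and 169 CPM in SCR libraries. Its likeness to POLR3G, SCR library 1 included, follows from the choice by profile and is no separate result. GADD45B had 7.8, 8.29 and 7.19 CPM in KD libraries, against 5.44, 3.03 and 3.13 CPM in SCR libraries. It therefore met the mean of 5 CPM only through its KD values. HSPA1B has a near-identical paralog and its counts are uncertain. For MAF1 they were LINC00938 (0.0311), METRN (0.0321) and ZFP41 (0.0333), with log2 changes of 0.09, 0.04 and 0.09 that were not called.

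**Figure D5:**
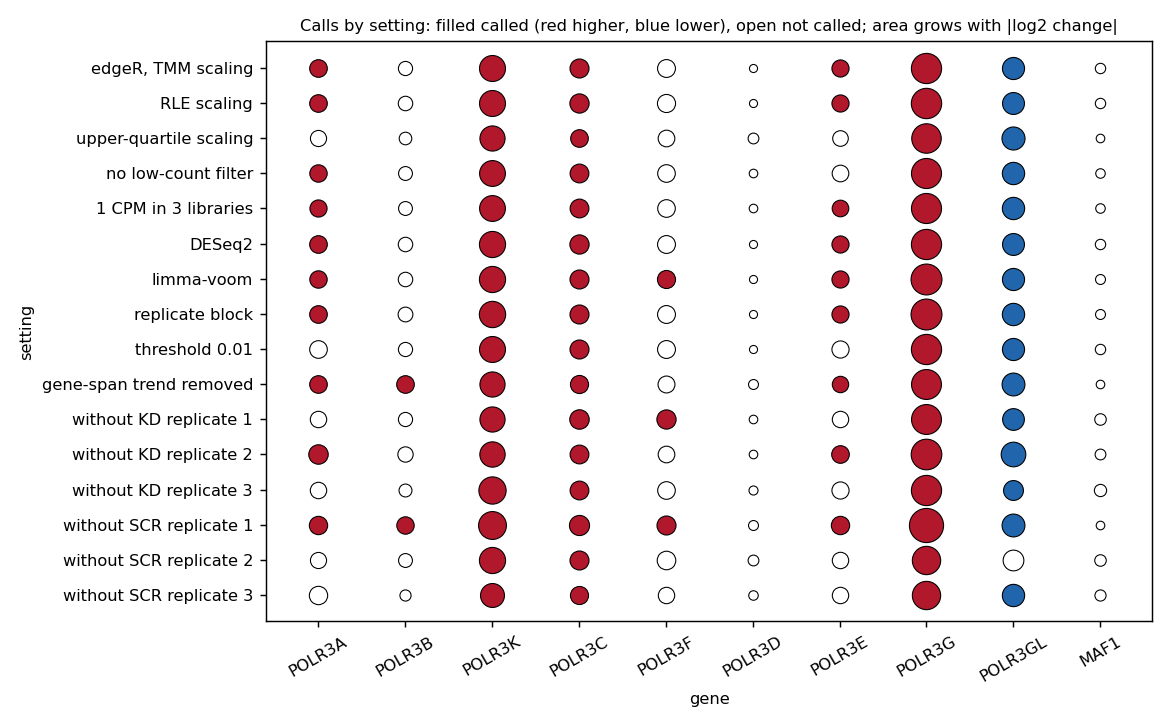
Calls of the 10 genes under each setting (rows) with edgeR unless another tool is named; filled circles were called (red higher, blue lower), open circles were not, and the area grows with the size of the log2 change. POLR3G, POLR3K and POLR3C are filled in every row, POLR3GL in every row except the one without SCR library 2, and POLR3D and MAF1 in none.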

How the data were processed

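PolyA+ RNA had been extracted with a miRNeasy Micro kit and made into TruSeq Stranded mRNA libraries, per the labels' protocols. Per the submitters' processing notes, the authors' tools were STAR 2.7.9a, RSEM and Trim Galore 0.6.4, with build GRCh38.p13; the RSEM version, annotation and strand setting are not given in these sources. The deposited values are whole numbers for 60708 rows and were read as RSEM expected counts that the authors rounded. The 44 pseudoautosomal Y rows were added to their X rows. Symbols came from a table of Ensembl IDs, and coordinates and transcript lengths from GENCODE release 29 (GRCh38).

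Groups and replicate numbers came from the titles. KD was compared with SCR in edgeR 4.0.16 (R 4.3.3): filterByExpr, TMM, glmQLFit and glmQLFTest, no covariate, two-sided, Benjamini-Hochberg over 14673 genes, threshold 0.05. SE was taken as log2 change over root F. The test was first tried on simulated counts, and no result here rests on that trial. Within groups, library pairs had chi-square values of 2.69 to 15.2 per degree of freedom, above sampling noise, and all 6 were kept. Counts of 101 or more stood behind each value of the 10 genes. Shares used exact permutation tests (scipy 1.17.1); figures used matplotlib 3.10.9. The genes, lists and tests were chosen with earlier results of these data known. A gene of the pathway lists is not reported here and was left out of their counts. Named were all 10 genes, every gene of pathway lists of up to 7 genes save the one left out, the 6 of smallest p in longer ones, 2 each for Pol I and Pol II, and the 3 most similar profiles for POLR3G and MAF1. Marker genes, overlapping neighbours, Pol III transcripts and PPP2R1A were named outside that rule, after their values were seen. Alternatives were RLE and upper-quartile scaling, other filters, DESeq2 1.42.0, limma-voom 3.58.1, a replicate block, a threshold of 0.01, removal of a gene-span trend, and leaving out each library.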

Additional observations from a re-analysis of the deposited data

How the results depend on the processing

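POLR3G, POLR3K and POLR3C kept their call and direction under all alternatives run, and POLR3GL under all except the one without SCR library 2. Of the 10 genes, 3 were called higher with upper-quartile scaling and 3 at a threshold of 0.01, against 5; leaving out single libraries gave 3 to 7 called higher (3 without KD library 3, SCR library 2 or SCR library 3) and 0 to 1 called lower. MAF1 turned to -0.01 with upper-quartile scaling and -0.01 with the gene-span trend removed, and ran from -0.06 to 0.10 with single libraries left out; none of these was called. Of the 68 pathway genes, 2 were called lower with upper-quartile scaling (RPP25, TSEN15), and 1 (RPP25, at about 1 CPM) with a filter of 1 CPM in 3 libraries, with limma-voom and with the gene-span trend removed, against 0; leaving out libraries gave 0 to 1 (POLR1D without KD library 2) and 31 to 43 higher. RPP25 and TSEN15 were named after their values were seen. Over all genes 1190 were higher and 1269 lower at 0.01, and with libraries left out 1264 to 2604 were higher and 1440 to 2510 lower, the lowest of both without SCR library 2. Without SCR library 3 they were 1420 and 1471. The difference in the POLR3G share ran from 21.8 to 30.2 points. The cause was not tested for any of these. The deviations of same-numbered libraries had correlations of 0.0315, 0.0963 and -0.0334, and those of differently numbered ones ran from -0.0777 to 0.045. With 3 libraries per group these values cannot exclude a pairing, which the labels do not state. With the replicate block 5 of the 10 genes were higher and 1 lower, and 41 pathway genes higher and 0 lower. Over all genes 2357 were then higher and 2385 lower. KD library 1, the shallowest, limits the precision of low genes.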

Other observations

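Products of Pol III were looked at in the same libraries. They mostly lack a polyA tail, and the libraries were polyA-selected, so their counts do not measure transcription by Pol III. Of 23 listed transcripts 21 had a row, 11 of these had no count in any library (a count of 0 allows up to 0.15 to 0.386 CPM, by library), and 5 passed the low-count filter. The U6 copies RNU6-1 and RNU6-2 were among those at 0. RN7SL1, the RNA of the signal recognition particle, had 9.37, 15.8 and 11.2 CPM in KD libraries, against 11.2, 7.43 and 5.42 CPM in SCR libraries, with overlapping groups (log2 change 0.63 ± 0.23, edgeR adjusted p = 0.0443). Its near-identical copy RN7SL2 was not called, at 0.09 ± 0.23 on the log2 scale (edgeR adjusted p = 0.799). Reads may be split between both copies. The call of RN7SL1 was lost without KD library 2 (adjusted p = 0.251), KD library 3 (0.0678), SCR library 2 (0.136) or SCR library 3 (0.169). BCYRN1, a brain cytoplasmic RNA with many genomic copies, had a log2 change of 0.84 ± 0.25 (edgeR adjusted p = 0.0196) with overlapping groups, and its call was lost without KD library 1 (0.0641), KD library 2 (0.0919), SCR library 2 (0.0877) or SCR library 3 (0.0751). RN7SK and RMRP were under 1 CPM on average in both groups and were not called.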
